A study of Mus musculus with 22 samples.

Results

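The 10 genes Srsf1, Srsf2, Srsf3, Srsf4, Srsf5, Srsf6, Srsf7, Srsf9, Srsf10 and Srsf11 code for SR proteins, a family of splicing factors. They were taken by gene symbol from 55487 genes, the full content of each of 2 deposited tables of normalised read counts. Ensembl identifiers in the tables were matched to symbols in the GENCODE M21 annotation of the mouse genome (GRCm38). All 10 genes were found in both tables. All 10 also passed the filter on low values, which was a level of at least 10 normalised reads in at least 2 libraries. That filter kept 21584 genes of the first table and 19833 of the second.

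SR proteins join RNA recognition domains to a tail rich in arginine and serine. They bind enhancer sequences within exons and help the first components of the spliceosome to settle on nearby splice sites. Kinases of the Srpk and Clk families phosphorylate the tail, which governs entry into the nucleus and activity there. Several SR genes limit their own output by splicing in an exon with an early stop codon, and the resulting RNA is removed by nonsense-mediated decay. GENCODE M21 lists 85 transcripts for the 10 genes, of which 29 are protein-coding, 15 carry the decay label and 26 retain an intron. Of the 10 genes, 9 have at least 1 transcript with the decay label, and Srsf10 has none. The deposited values add up all transcripts of a gene, so productive and decay-bound RNA cannot be told apart in them.

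RNA was measured in mouse embryonic stem cells lacking Dux (Dux-/-), which were kept in 2iLIF medium. DUX is a transcription factor of the early embryo that switches on genes of the 2-cell stage. Each cell line expressed mCherry, a red fluorescent protein, alone or joined to DUX or a DUX derivative. Every group, mCherry alone included, shared the Dux deletion and was given doxycycline at 0.25 ug/mL for 12 hours, after 24 hours of recovery from plating. FL is full-length DUX, and the other groups are C3+14, C1C3a, C1C3b, C1C3c, C1+14, C12345delt14, deltC12345+14 and deltC12345delt14, written as in the labels. The labels do not state what C1 to C5 and 14 stand for, and names with delt are read here as forms lacking the part named. They also do not state what separates a, b and c, which promoter drove the transgene, or whether a line was 1 clone. Nor do they say that replicates came from separate cultures, so the tests measure only the spread between these libraries, which may be technical. The group C3delt14 was not analysed here.

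The 20 libraries of 10 groups, 2 replicates each, held between 21059953 and 40448890 reads. The first table, called the chimera table here, holds mCherry, C1+14, FL, C3+14 and the 3 groups C1C3a, C1C3b and C1C3c, 14 libraries in all. The other, the deletion table, covers FL with C12345delt14, deltC12345+14 and deltC12345delt14 in 8 libraries. FL is the same pair of libraries in both, and the tables were scaled separately, so levels are compared only within a table. The targeted locus checks nothing, since Duxf3 and Gm4981 had 0 reads in every library. Libraries fell into 2 types by the share of reads in 1649 genes with many near-identical copies. It was 0.360 to 0.502% in both C3+14 and both mCherry libraries, deltC12345+14 replicate 2 and deltC12345delt14 replicate 1. In all others it was 1.74 to 2.68%. FL, C1C3a, C1C3b, C1C3c and C1+14 therefore differ from mCherry in library type as well as in construct, and these cannot be told apart. C3+14 and mCherry are of the same type.

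Per kilobase of annotated exon, Srsf5 was the most abundant of the family in mCherry cells, at a mean of 2186 normalised reads per kilobase. Srsf2 stood at 2134 normalised reads per kilobase, Srsf1 at 1999, Srsf7 at 1954, Srsf3 at 1817 and Srsf6 at 1774. A lower tier held Srsf10 at 762 normalised reads per kilobase, Srsf9 at 566 and Srsf11 at 510.4. Srsf4 was the least abundant, at 133. Exon length was the union over all annotated transcripts, those retaining an intron included, and the order depends on it. Without division by length Srsf3 had the highest mean in mCherry, at 14353 normalised reads, with Srsf1 at 11412 and Srsf5 at 8719. These levels mix in reads that could come from other genes where sequence is shared. Of the 50-base stretches of Srsf4, 39.5% also lie in Gm12992, which overlaps it on the other strand, and 20.7% of those of Srsf2 lie in Mettl23 or Mfsd11, which overlap it likewise. Pseudogenes or other copies share 10.3% of Srsf10, 10.1% of Srsf5 and 10.04% of Srsf3. How the authors counted such reads, and whether strand was used, is not given in the sources used here, so levels of these 5 genes are uncertain to that extent. The other members shared under 1% of their stretches, namely 0.882% for Srsf1, 0.556% for Srsf7, 0.113% for Srsf11 and 0% for Srsf6 and Srsf9.

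The first comparison asks how the family differed between cells given DUX or a chimera and cells given mCherry alone. Srsf1, Srsf2, Srsf3, Srsf5, Srsf7 and Srsf10 were lower than in mCherry in all 6 groups, by 0.33 to 1.70 on the log2 scale. The highest of these 36 adjusted p-values was 0.0273 (limma). Of all genes tested, between 14.5% (C1+14) and 27.5% (C1C3a) were called lower in a single such comparison. The share of all genes called lower in all 6 was not counted, so this pattern is not shown to be particular to the members. Summed over the 10 genes, mCherry libraries held 67323 ± 1855 normalised reads (SD, n = 2). The sum was 46048 ± 4942 in FL (68.4% of mCherry), 37543 ± 52.3 in C3+14 (55.8%) and 38332 ± 3645 in C1C3a (56.9%). It was 41108 ± 2283 in C1C3b (61.1%), 45010 ± 3137 in C1C3c (66.9%) and 41905 ± 2103 in C1+14 (62.2%). No group's libraries overlapped those of mCherry in this sum. Its size depends on scaling. As a share of all reads of a library, the family made up 0.333 and 0.321% in mCherry. The share was 0.105 and 0.114% in FL, 0.106 and 0.105% in C3+14, and 0.0993 and 0.0978% in C1C3a. In C1C3b it was 0.193 and 0.181%, in C1C3c 0.258 and 0.242%, and in C1+14 0.247 and 0.228%. The order of the constructs thus differed between the sum and the share. In bulk RNA, fewer cells of a type and less RNA per cell cannot be told apart. All 6 comparisons use the same 2 mCherry libraries, so their likeness is not independent.

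**Figure D1:**
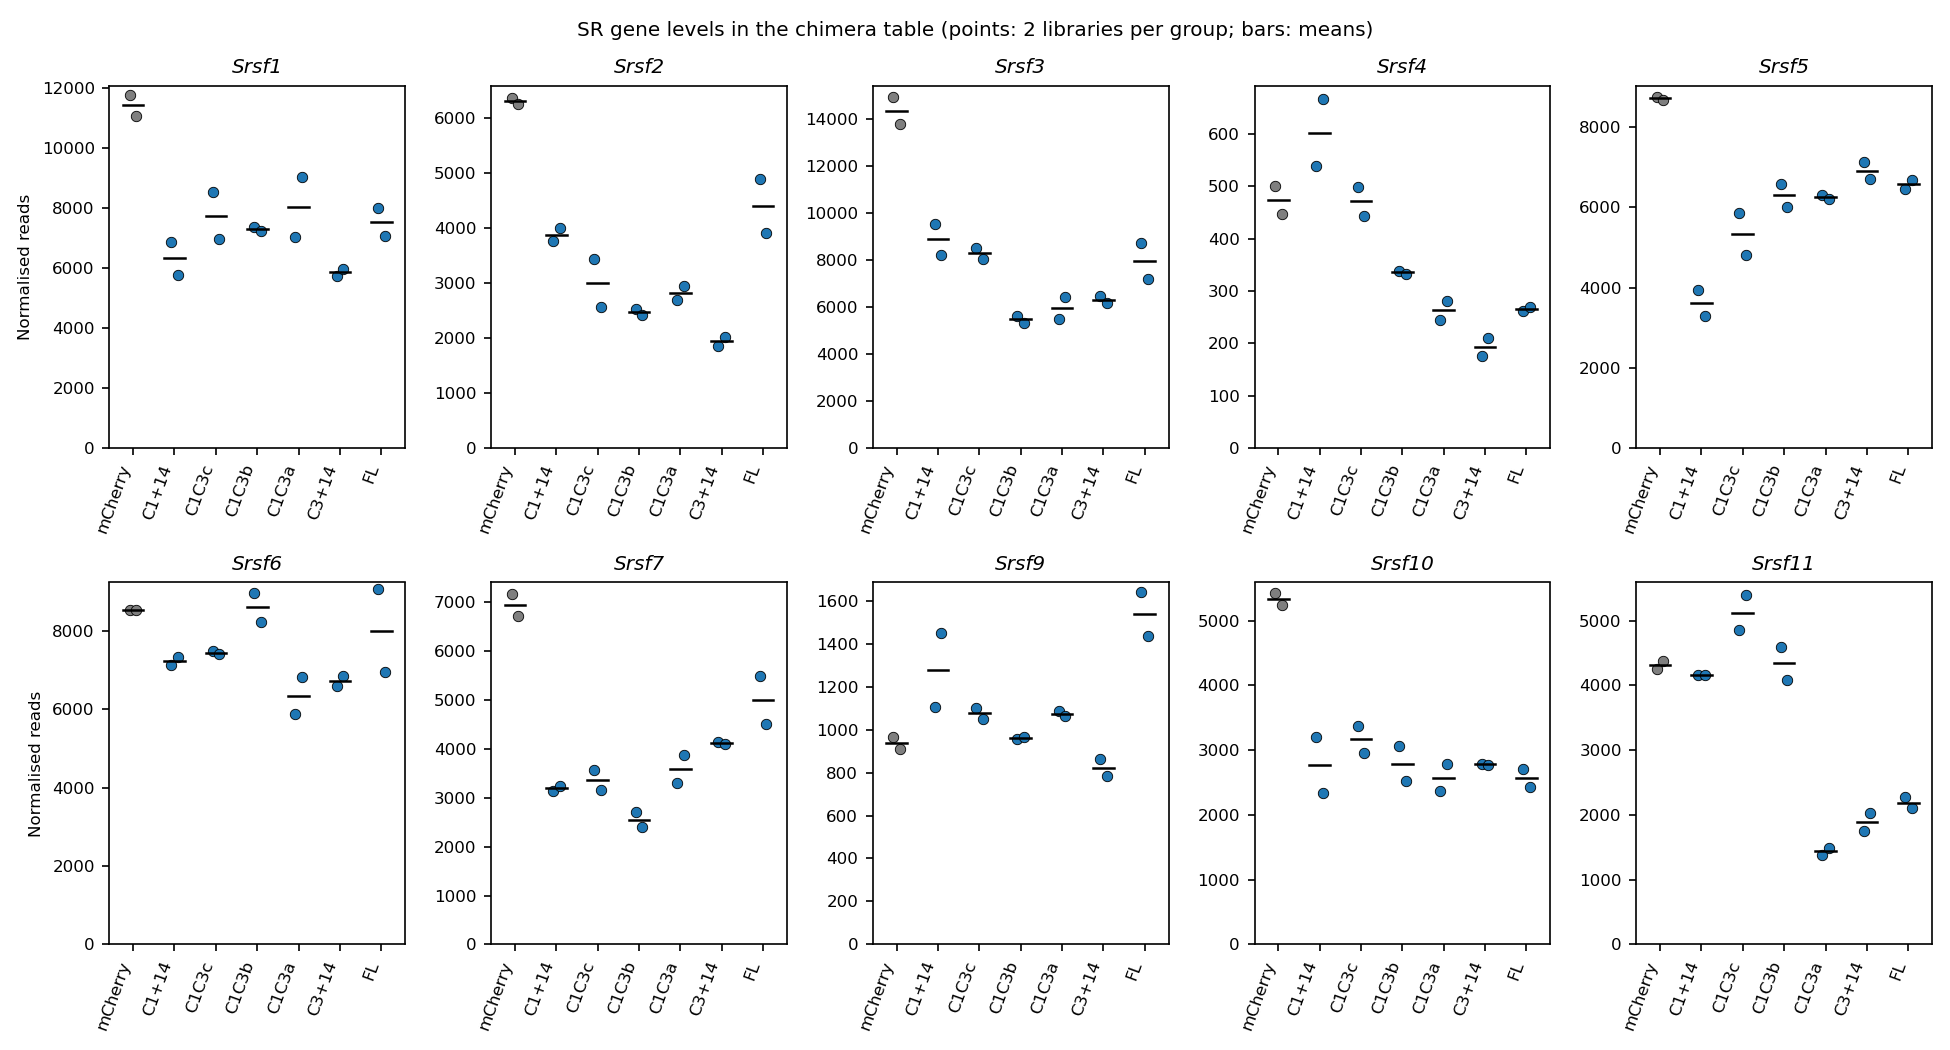
Level of each SR gene in the chimera table. The vertical axis is normalised reads, points are the 2 libraries of each group and bars are means. Grey points are mCherry. Both mCherry points lie above all 12 other points for Srsf1, Srsf2, Srsf3, Srsf5, Srsf7 and Srsf10, but not for Srsf4, Srsf6, Srsf9 or Srsf11. How many of all genes do so was not counted.

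Counts of members are read against all genes tested, at an adjusted p under 0.05. In FL, 1 member was higher and 8 were lower than in mCherry, where 33.2% of all genes were called higher and 27.4% lower. In C3+14, 0 were higher and 9 lower, against 37.3% and 25.7% of all genes. In C1C3a, 0 were higher and 9 lower, against 35.3% and 27.5%. C1C3b had 0 higher and 7 lower, against 34.7% and 26%, and C1C3c had 0 higher and 6 lower, against 23.8% and 20.8%. C1+14, with the fewest genes called, had 1 member higher and 6 lower, against 16.9% and 14.5%. The members' median log2 difference was lowest in C3+14 (-0.95, against 0.23 over all genes tested) and C1C3a (-0.90, against 0.12). C1+14 had -0.70 against 0.00, C1C3c -0.64 against 0.01, C1C3b -0.57 against 0.15 and FL -0.57 against 0.09. The members' median thus lay below that of all genes in every group.

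**Figure D2:**
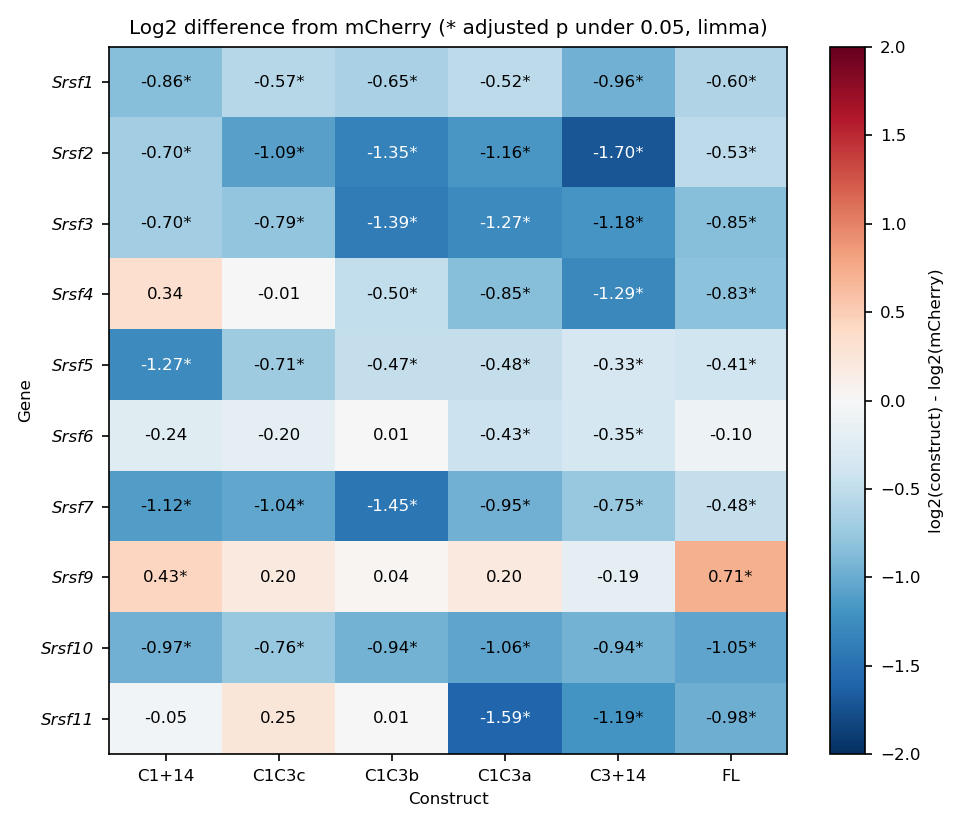
Difference of each SR gene (rows) from mCherry in each construct (columns), as log2(construct) minus log2(mCherry), colour-coded from blue (lower) to red (higher). Stars mark an adjusted p under 0.05 (limma). Rows Srsf1, Srsf2, Srsf3, Srsf5, Srsf7 and Srsf10 carry a star in every column, and Srsf11 ranges from -1.59 in C1C3a to 0.25 in C1C3c.

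Srsf1 (ENSMUSG00000018379, chr11:88047373-88053755, plus strand), the founding SR protein, also acts in translation and RNA decay. It stood at 11753 and 11071 normalised reads in mCherry. FL had 7978 and 7059, C3+14 5740.1 and 5957, and C1+14 6865 and 5762. The other 6 libraries lay between 6968.5 in C1C3c and 9015 in C1C3a, so no group overlapped mCherry. The difference was largest in C3+14, at -0.96 (SE 0.14, limma, adjusted p 5.56e-05), and smallest in C1C3a, at -0.52 (SE 0.14, adjusted p 0.00583). Without C1C3a replicate 1 the latter was -0.34 with an adjusted p of 0.0801, and without C1C3c replicate 2 the C1C3c value was -0.42 with an adjusted p of 0.0683 (limma).

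Srsf2 (ENSMUSG00000034120, chr11:116849901-116853094, minus strand) acts in the release of paused RNA polymerase as well as in splicing. mCherry libraries had 6360 and 6266 normalised reads. FL had 4902 and 3906, C1+14 3768 and 3995, C1C3c 3437 and 2560.4, and C1C3a 2689.8 and 2953. C1C3b had 2529 and 2418, and C3+14 had 1859.7 and 2019.7, the lowest of all groups. C3+14 was at 30.7% of mCherry, a difference of -1.70 (SE 0.14, limma, adjusted p 3.91e-07), the widest of any member against mCherry. FL differed by -0.53 (SE 0.14, limma, adjusted p 0.00632), and without FL replicate 2 by -0.36 with an adjusted p of 0.0655.

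Srsf3 (ENSMUSG00000071172, chr17:29032628-29043373, plus strand) and Srsf7 (ENSMUSG00000024097, chr17:80200080-80207307, minus strand) both take part in export of mRNA from the nucleus. Srsf3 stood at 14922 and 13784 normalised reads in mCherry and between 5321 (C1C3b) and 9547 (C1+14) in the other 12 libraries. Its difference ran from -0.70 in C1+14 (SE 0.13, limma, adjusted p 0.00119) to -1.39 in C1C3b (SE 0.13, adjusted p 9.55e-07). Srsf7 stood at 7162 and 6712.5 in mCherry and between 2397 (C1C3b) and 5497 (FL) elsewhere. Its difference ran from -0.48 in FL (SE 0.13, limma, adjusted p 0.00507) to -1.45 in C1C3b (SE 0.13, adjusted p 7.37e-07). Both C1C3b libraries were the lowest of the table for Srsf7, while for Srsf3 they overlapped C1C3a. No construct overlapped mCherry in either gene.

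Srsf10 (ENSMUSG00000028676, chr4:135855747-135869908, plus strand) turns into a repressor of splicing when it loses its phosphates. It stood at 5432 and 5240.5 normalised reads in mCherry. The 12 other libraries lay between 2332 (C1+14 replicate 2) and 3372 (C1C3c replicate 1). Group means of the 6 constructs ran from 2571 in FL to 3165 in C1C3c, and no pair of neighbours among them in order of level differed in the test. The differences from mCherry were between -0.76 in C1C3c (SE 0.15, limma, adjusted p 0.00149) and -1.06 in C1C3a (SE 0.15, adjusted p 5.35e-05). In C1+14 the value of -0.97 had an adjusted p of 0.0575 when limma was fitted on those 2 groups alone.

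Srsf5 (ENSMUSG00000021134, chr12:80945504-80950507, plus strand), a member with a pair of RNA recognition domains, is known as an early-response gene of regenerating liver. mCherry libraries had 8757 and 8681 normalised reads. C3+14 had 7136 and 6705, FL 6467 and 6695, C1C3b 6591 and 6009, and C1C3a 6308 and 6216. C1C3c had 5870 and 4810.4, and C1+14 had 3952 and 3291. C1+14 was at 41.4% of mCherry, a difference of -1.27 (SE 0.12, limma, adjusted p 8.12e-06), while C3+14 was at 79.3%, a difference of -0.33 (SE 0.12, adjusted p 0.0273). Both C1+14 libraries were the lowest of the table. The FL call (-0.41, limma, adjusted p 0.0104) was lost without mCherry replicate 1 (adjusted p 0.0564) or replicate 2 (0.0501). The C3+14 call was lost without any 1 of its 4 libraries, with adjusted p from 0.0588 to 0.140 (limma).

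Srsf11 (ENSMUSG00000055436, chr3:158010473-158036639, minus strand), an SR-related protein found with the spliceosome factors that recognise the end of the intron, split the constructs. In FL it stood at 2276 and 2101 normalised reads, in C3+14 at 1759 and 2029, and in C1C3a at 1387 and 1486.5. In mCherry it stood at 4249.8 and 4372, in C1C3b at 4599 and 4083, in C1C3c at 4857 and 5389, and in C1+14 at 4156 and 4163. Every library of the first 3 groups was below every library of the other 4. The difference from mCherry was -0.98 in FL (SE 0.11, limma, adjusted p 7.56e-06), -1.19 in C3+14 (SE 0.11, adjusted p 1.18e-06) and -1.59 in C1C3a (SE 0.11, adjusted p 6.28e-08). No difference passed the test in C1C3b (0.01, 95% interval -0.24 to 0.25), C1+14 (-0.05, -0.30 to 0.19) or C1C3c (0.25, 0.00 to 0.49, limma, adjusted p 0.0939). For C1C3c, other settings called Srsf11 higher, namely edgeR on recovered reads (0.30, adjusted p 0.0499), limma after quantile normalisation (0.52, adjusted p 0.00224) and limma with library totals (0.44, adjusted p 0.0123). In order of level, C1C3c, C1C3b, mCherry and C1+14 did not differ from their neighbours. FL was below C1+14 by 0.93 (limma, adjusted p 1.58e-05), in a comparison where 31% of all genes were called higher in FL and 26% lower. C3+14 was above C1C3a by 0.40 (limma, adjusted p 0.0243), where 11.1% of all genes were called higher and 11.7% lower.

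Srsf4 (ENSMUSG00000028911, chr4:131873617-131901706, plus strand), among the longest SR proteins, had its lowest levels in the same 3 groups. C3+14 had 176 and 211 normalised reads, FL 262 and 270.2, and C1C3a 245 and 282. C1C3b had 338 and 332, C1C3c 499 and 444, mCherry 501 and 447, and C1+14 538 and 667. It was lower than mCherry in C3+14 (-1.29, SE 0.17, limma, adjusted p 2.27e-05), C1C3a (-0.85, SE 0.17, adjusted p 0.000751), FL (-0.83, SE 0.17, adjusted p 0.000942) and C1C3b (-0.50, SE 0.17, adjusted p 0.0227). The C1C3b call was lost without any 1 of its 4 libraries, with adjusted p from 0.05002 to 0.148 (limma). C1C3c (-0.01, 95% interval -0.38 to 0.36) and C1+14 (0.34, -0.03 to 0.71) did not pass the test. With library totals C1+14 was called higher (0.56, limma, adjusted p 0.0406).

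Upstream sequences are shown for Srsf11, Srsf4 and Srsf5, chosen after their values were seen, as the members with a call in the deletion table that was kept under every alternative run. They are 120 bases just upstream of both annotated starts (GENCODE and RefSeq) of each gene, 5′ to 3′ on the gene's strand, from RefSeq on GRCm38.p6. Capitals mark matches, on either strand, to GGGCGG (a GC box) or TTCCGG (the core of many ETS-factor sites). CCAAT and TGATT, part of a sequence described for mouse DUX, were searched in the same way and had no match in these stretches. Srsf11 is at chr3:158036640-158036759 (minus), Srsf4 at chr4:131873497-131873616 (plus) and Srsf5 at chr12:80945379-80945498 (plus).
Srsf11: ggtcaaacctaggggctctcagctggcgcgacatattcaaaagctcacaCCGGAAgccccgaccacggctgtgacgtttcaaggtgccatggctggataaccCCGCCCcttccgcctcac
Srsf4: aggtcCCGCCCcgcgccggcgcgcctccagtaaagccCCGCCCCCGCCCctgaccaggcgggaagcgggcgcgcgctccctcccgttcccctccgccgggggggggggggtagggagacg
Srsf5: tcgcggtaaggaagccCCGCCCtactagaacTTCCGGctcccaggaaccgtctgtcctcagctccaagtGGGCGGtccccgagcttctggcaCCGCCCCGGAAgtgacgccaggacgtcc
The Srsf4 stretch holds 3 GC boxes, and the Srsf5 stretch holds 3 GC boxes and 2 ETS-type cores, the last GC box and the last core overlapping. Srsf11 has 1 of each. In windows of 300 bases around the starts (250 before, 50 after), 9 of the 10 members held GGGCGG, against 35.7% of 32851 such windows over the genome. TTCCGG was in 6 of the 10, against 14.9%, CCAAT in 4, against 37.4%, and TGATT in 4, against 37.0%. The stretches shown were 60.8% (Srsf11) to 81.7% (Srsf4) G or C. The windows over the genome were not matched to the members in base composition or expression, so these shares do not mark a trait of the family. These are descriptions of letters and not of bound sites.

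Srsf6 (ENSMUSG00000016921, chr2:162931528-162937121, plus strand) varied least in the chimera table, with group means within 0.44 of each other on the log2 scale. mCherry had 8535 and 8526 normalised reads, and the constructs lay between 5877 (C1C3a) and 9077 (FL). It was lower than mCherry in C1C3a (-0.43, SE 0.13, limma, adjusted p 0.00902) and C3+14 (-0.35, SE 0.13, adjusted p 0.0280). The first call was lost without C1C3a replicate 1 (-0.32, limma, adjusted p 0.0842). The second was lost without any 1 of its 4 libraries (adjusted p from 0.0743 to 0.121). Srsf6 in FL (-0.10, 95% interval -0.37 to 0.17) and in C1C3b (0.01, -0.26 to 0.28) overlapped mCherry. In FL it was called lower with quantiles (-0.77, limma, adjusted p 2.47e-05) and library totals (-1.14, adjusted p 2.39e-07), where the median of all genes was also lower.

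Srsf9 (ENSMUSG00000029538, chr5:115327177-115333080, plus strand), with a short arginine and serine tail, was the member called higher than in mCherry. It stood at 963 and 909 normalised reads in mCherry, and at 1641 and 1433 in FL. C1+14 had 1104 and 1451, C1C3c 1100.5 and 1051, C1C3a 1086 and 1062, C1C3b 954 and 966, and C3+14 861 and 782. FL was higher by 0.71 (SE 0.14, limma, adjusted p 0.000653) and C1+14 by 0.43 (SE 0.14, adjusted p 0.0310), and C3+14 was the lowest group (-0.19, 95% interval -0.49 to 0.11). The C1+14 call was lost without C1+14 replicate 2 (0.24, limma, adjusted p 0.267) and without either mCherry library (adjusted p 0.1004 and 0.170). Scaling to the library total turned the FL value to -0.32 (limma, adjusted p 0.0724) and made C3+14 a lower call (-0.98, adjusted p 8.63e-05).

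Size factors and library totals scale these libraries differently, so the direction of each value was read under 5 settings. The median of all genes in FL against mCherry moved from 0.09 with the deposited size factors to -0.27 after quantile normalisation and -0.86 with library totals. In C3+14 it moved from 0.23 to -0.25 and -0.52, in C1C3a from 0.12 to -0.32 and -0.73, and in C1C3b from 0.15 to -0.13 and 0.06. In C1C3c it moved from 0.01 to -0.09 and 0.20, and in C1+14 from 0.00 to -0.09 and 0.16. The 36 values of Srsf1, Srsf2, Srsf3, Srsf5, Srsf7 and Srsf10 against mCherry were below 0 and called under every one of the 5 settings. Those settings were limma on size factors, quantiles or library totals, and edgeR and DESeq2 on recovered reads. Their values lay from -0.33 to -1.70 with size factors and from -0.37 to -2.49 with library totals. All 36 also lay at least 0.32 below the median of all genes in each setting. These genes were picked by their calls with size factors, and every setting uses the same libraries, so this is only a description. How many of all genes stay called lower under all 5 settings was not counted. Srsf9 in FL stayed above the median of all genes throughout, as the only member to do so there.

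The share of all calls that were higher than mCherry moved with scaling. In FL it was 54.8% with size factors, 41.1% with quantiles and 24.9% with library totals. The same 3 settings gave 59.2, 42.3 and 34.7% in C3+14, and 56.2, 39.4 and 29.6% in C1C3a. They gave 57.1, 46.7 and 53.6% in C1C3b, 53.4, 49.8 and 66.1% in C1C3c, and 54.0, 54.9 and 74.4% in C1+14. The 9 lower members of C3+14 and of C1C3a, and the 8 of FL, kept their direction in each.

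**Figure D3:**
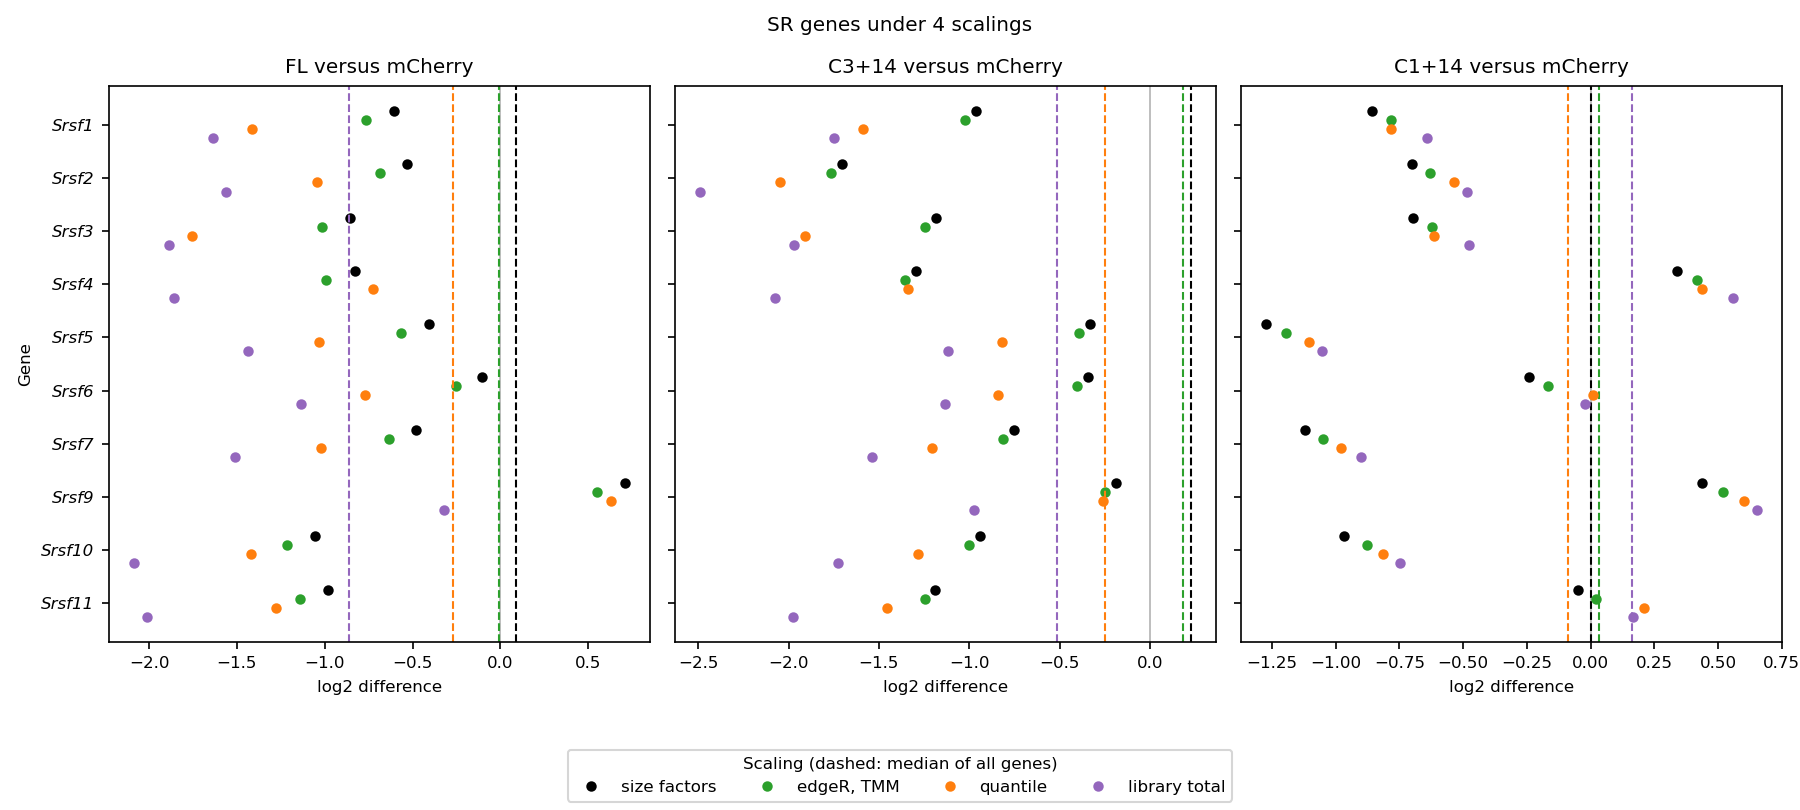
Log2 difference from mCherry (horizontal axis) of each SR gene (vertical axis) in FL, C3+14 and C1+14 under 4 scalings, by colour, with the median of all genes as a dashed line. In FL, points shift left from size factors to library totals while 9 of 10 genes stay left of their own dashed line, and in C1+14 they shift right.

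Ratios of 2 members within a library do not depend on scaling and can be set side by side across the tables, and these pairs were chosen after their values were seen. mCherry libraries held 12.2 and 12.2 Srsf1 reads per Srsf9 read. FL held 4.86 and 4.93, C1+14 6.22 and 3.97, and the other constructs of the chimera table lay between 6.46 and 8.49. Srsf5 reads per Srsf11 read were 2.06 and 1.99 in mCherry, 2.84 and 3.19 in FL, 4.06 and 3.30 in C3+14, and 4.55 and 4.18 in C1C3a. They were lower than mCherry in C1C3b (1.43 and 1.47), C1C3c (1.21 and 0.893) and C1+14 (0.951 and 0.791). In the deletion table the ratio was 3.05 and 2.49 in C12345delt14, 1.03 and 1.03 in deltC12345+14, and 0.844 and 0.738 in deltC12345delt14. With 2 libraries against 2, an exact permutation test of a ratio cannot give a p below 0.333, so none is given.

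**Figure D4:**
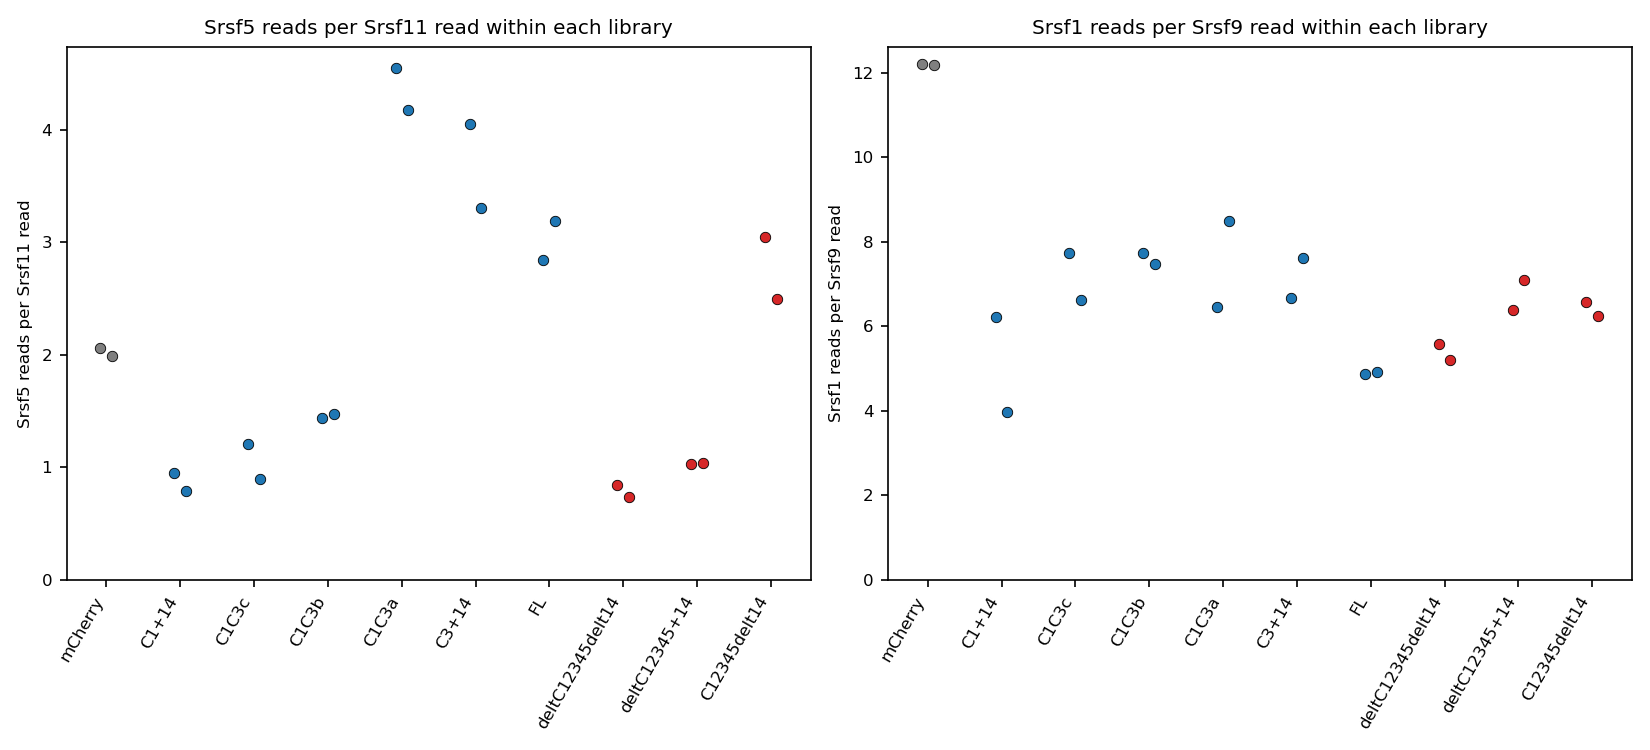
Srsf5 reads per Srsf11 read (left) and Srsf1 reads per Srsf9 read (right) in each library. Each point is 1 library, grey for mCherry, blue for other groups of the chimera table and red for groups of the deletion table other than FL. FL, C3+14, C1C3a and C12345delt14 lie above mCherry on the left, and mCherry lies at 12.2 on the right, above all others.

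Library type and cell identity moved with these results, and their part in them was not tested. Within deltC12345+14, the type shared with FL minus the type of mCherry gave a median of -0.14 over the 10 members and 0.00 over all genes. Within deltC12345delt14 it gave -0.17 over the members and 0.02 over all genes. The widest of these within-construct gaps were -0.46 for Srsf6 and -0.44 for Srsf5. In C3+14, of the same type as mCherry, the members' median was -0.95 with size factors, and construct and cell markers differed there from mCherry too. In the other groups of the chimera table, type and construct cannot be told apart. A list of 7 embryonic stem cell markers, all above 0 in every group, summed to between 80300 and 81019 normalised reads in mCherry. It summed to 34625 and 45751 in FL, 36181 and 37384 in C3+14, 43308 and 50003 in C1C3a, and 27042 and 29949 in C1C3b. In C1C3c it was 36618 and 57323, and in C1+14 it was 56002 and 59600. Of these 7 markers, 0 were called higher and 2 lower in C1+14, 1 and 6 in FL, and 1 and 5 in C1C3a. C3+14 and C1C3b each had 0 and 5, and C1C3c had 0 and 6, to be read against the shares of all genes given above. A list of 6 markers of the 2-cell stage summed to 0.660 and 0.858 in mCherry, with Zfp352, Zscan4c, Zscan4d, Tcstv1 and Tcstv3 at 0. It ran from 725110 to 1355100 in FL, from 724970 to 792250 in C3+14 and from 323960 to 476210 in C1C3a. In C1C3b it was 13384 and 18930.0, in C1C3c 823 to 897 with Tcstv1 at 0, and in C1+14 4.96 to 10.96 with Zfp352, Tcstv1 and Tcstv3 at 0. Of these 6 markers, 2 were called higher and 0 lower in C1+14, and 4 and 0 in C1C3c. FL, C3+14, C1C3a and C1C3b each had 6 and 0, to be read against the same shares. C1+14 thus differed from mCherry in library type, in 2-cell marker calls and in the stem cell marker sum. The part of each in the SR values was not tested.

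Markers of other cell types were also summed. The 6 fibroblast markers were at 84.5 to 103 in mCherry and at 105 to 358 in the 6 constructs, with Lum at 0 in mCherry and FL. The 5 primitive endoderm markers were at 63.3 to 75.5 in mCherry and at 88.1 to 564 in the constructs, with Sox7 at 0 in FL. The 5 trophectoderm markers, none at 0, were at 1910 to 2006 in mCherry and at 501 to 1014 in the constructs. A sum is set mostly by the most abundant genes of a list, and single trophectoderm markers went both ways. In C3+14, 3 of these 5 were called higher and 2 lower (median 1.05), and in C1C3a 1 and 2 (median 0.34). FL and C1C3c each had 1 higher and 2 lower, C1C3b 2 and 2, and C1+14 1 and 1. Of the 5 primitive endoderm markers, 1 was higher and 1 lower in FL, 3 and 1 in C3+14, and 3 and 0 in C1C3a. C1C3b had 4 and 0, C1C3c 2 and 0, and C1+14 1 and 0. Of the 6 fibroblast markers, 1 was higher and 0 lower in FL, 5 and 1 in C3+14, and 3 and 0 in C1C3a. There C1C3b had 4 and 1, C1C3c 3 and 1, and C1+14 1 and 1. All these counts are read against the shares of all genes given above for each group.

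Among the constructs, C3+14 was compared with FL. No member was called higher and 3 were lower, where 22.9% of all genes were called higher and 17.9% lower. Srsf2 was at 44.3% of FL (-1.17, SE 0.14, limma, adjusted p 4.16e-05), with 1859.7 and 2019.7 normalised reads against 4902 and 3906. Srsf9 was at 53.5% (-0.90, SE 0.14, limma, adjusted p 0.000256), and Srsf4 at 72.4% (-0.47, SE 0.17, adjusted p 0.0435). The Srsf4 call was lost without any 1 of the 4 libraries (adjusted p from 0.0543 to 0.244) and in edgeR (0.146) and DESeq2 (0.0701). It was also lost without the filter (limma, adjusted p 0.0593), in a fit of the 2 groups alone (0.127) and with library totals (-0.22, adjusted p 0.377). DESeq2 called Srsf3 lower (-0.34, adjusted p 0.0493). Without FL replicate 2, Srsf3, Srsf6 and Srsf7 were also called lower and 5 members in all. With library totals, 71.8% of all calls were higher in C3+14, against 56.1% with size factors. The 2 groups differ in library type, which cannot be told apart from the construct.

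C1C3a, C1C3b and C1C3c, all of 1 library type, were each compared with C1+14, and these comparisons share the C1+14 libraries. C1C3a had 1 member higher (Srsf5) and 4 lower (Srsf2, Srsf3, Srsf4 and Srsf11), against 32.5% of all genes higher and 24.8% lower. Srsf11 was at 34.5% of C1+14 (-1.53, SE 0.11, limma, adjusted p 1.24e-07) and Srsf4 at 43.9% (-1.19, SE 0.17, adjusted p 5.91e-05). Srsf5 was at 174% (0.80, SE 0.12, limma, adjusted p 9.44e-05), but the call was lost with quantiles (0.05, adjusted p 0.766) and library totals (-0.34, adjusted p 0.0585). The median of all genes moved there from 0.13 to -0.94, and the share of calls that were higher from 56.7% to 19.9%, or 39.0% with quantiles. Srsf5 lay above that median by 0.66 with size factors, 0.60 with library totals and 0.32 with quantiles. edgeR also called Srsf6 (-0.40, adjusted p 0.0141) and Srsf9 (-0.46, adjusted p 0.0133) lower. The Srsf2 call (-0.46, limma, adjusted p 0.0150) was lost without C1C3a replicate 1 (0.0899) or C1+14 replicate 2 (0.0671). Srsf1, at 0.34 (adjusted p 0.0547), passed without C1C3a replicate 1 (0.52, adjusted p 0.0150) or C1+14 replicate 1 (0.47, adjusted p 0.0303), and Srsf9 passed as lower without C1+14 replicate 1 (-0.43, adjusted p 0.0235).

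C1C3b also had 1 member higher (Srsf5, at 174% of C1+14, 0.80, SE 0.12, limma, adjusted p 0.000173) and 4 lower, against 26.4% of all genes higher and 18.6% lower. The lower ones were Srsf4 (-0.84, SE 0.17, limma, adjusted p 0.00154), Srsf3 (-0.69, SE 0.13, adjusted p 0.000650), Srsf2 (-0.65, SE 0.14, adjusted p 0.00273) and Srsf9 (-0.40, SE 0.14, adjusted p 0.0333). Srsf7 was at -0.33 (limma, adjusted p 0.0508), and was called lower in edgeR (-0.44, adjusted p 0.0122), with quantiles (-0.62, adjusted p 0.000374), with library totals (-0.64, adjusted p 0.000298) and with a pseudocount of 8 (adjusted p 0.0496). The Srsf9 call was lost without C1C3b replicate 1 (adjusted p 0.117) or 2 (0.103) and without C1+14 replicate 2 (0.308). The share of calls that were higher was 58.7% with size factors, 46.1% with quantiles and 40.7% with library totals. C1C3c had 1 member higher, Srsf5 (147%, 0.56, SE 0.12, limma, adjusted p 0.00937), and 0 lower, against 8.57% of all genes higher and 5.77% lower. That call was lost without C1C3c replicate 1 (0.42, limma, adjusted p 0.0527), without C1+14 replicate 2 (0.43, adjusted p 0.0863) and in a fit of the 2 groups alone (adjusted p 0.248). Without C1C3c replicate 1, Srsf2 was called lower (-0.60, limma, adjusted p 0.0173).

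C1C3b was set against C1C3a, since the labels give these names a common part and differ by 1 letter. It had 2 members higher and 1 lower, where 25.4% of all genes were called higher and 28.6% lower. Srsf11 was at 302% of C1C3a (1.59, SE 0.11, limma, adjusted p 1.54e-07), with 4599 and 4083 normalised reads against 1387 and 1486.5. Srsf6 was at 136% (0.44, SE 0.13, limma, adjusted p 0.00950), a call lost without C1C3a replicate 1 (0.0842) or C1C3b replicate 1 (0.0720). Srsf7 was at 71.2% (-0.49, SE 0.13, limma, adjusted p 0.00519), but with library totals it was 0.33 (adjusted p 0.0134). That call was lost with quantiles (-0.18, adjusted p 0.164) and without C1C3a replicate 2 (0.0600) or C1C3b replicate 2 (0.0567). edgeR also called Srsf4 higher (0.45, adjusted p 0.0499). The median of all genes moved there from -0.07 to 0.71, and the share of calls that were higher from 47.1% to 81.1%, or 57.2% with quantiles.

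Over the members, the median was -0.30 for C3+14 against FL, where that of all genes was 0.08. It was -0.21 for C1C3a against C1+14 (all genes 0.13), -0.15 for C1C3b against C1+14 (0.15), 0.06 for C1C3c against C1+14 (0.00) and -0.06 for C1C3b against C1C3a (-0.07). In the deletion table it was 0.04 for C12345delt14 against FL (-0.04), -0.06 for deltC12345+14 against FL (-0.08), 0.10 for deltC12345delt14 against C12345delt14 (-0.08) and -0.05 for deltC12345delt14 against deltC12345+14 (0.02). With quantiles the members' median was 0.71 against 0.23 for deltC12345+14 against FL and 0.46 against 0.12 for C1C3b against C1C3a.

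The deletion table asks what removing 14 or C1 to C5 did to the family. Removing 14 from the full-length protein (C12345delt14 against FL) gave 0 members higher and 0 lower in limma, where 0.363% of all genes were called higher and 0.645% lower. Without adjustment 2361 genes were higher and 2574 lower at p under 0.05, and DESeq2 called 2005 genes and edgeR 530. The widest member differences were Srsf4 at 0.61 (95% interval 0.22 to 0.99, limma, adjusted p 0.0899), with 464 and 545 normalised reads against 323 and 338, and Srsf3 at -0.42 (-0.75 to -0.09, adjusted p 0.129). Of all calls, 36% were higher with size factors and 50% with quantiles. Both groups are of 1 library type.

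Removing C1 to C5 while keeping 14 (deltC12345+14 against FL) gave 3 members higher and 3 lower, where 24.1% of all genes were called higher and 29.2% lower. Srsf11 had 4579 and 5402 normalised reads against 2799.7 and 2628 in FL, and was at 183% (0.87, SE 0.16, limma, adjusted p 0.00267). Srsf4 had 621 and 658 against 323 and 338, and was at 193% (0.95, SE 0.16, limma, adjusted p 0.00243). Both groups were apart without overlap, and both calls were kept under every alternative run. Srsf10 was at 136% (0.45, SE 0.13, limma, adjusted p 0.0242), with 4298 and 4392 against 3329 and 3046.5. Its call was lost without FL replicate 2 (adjusted p 0.0833) and without deltC12345+14 replicate 1 (0.0794) or 2 (0.107).

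Srsf5 had 4715 and 5584 normalised reads in deltC12345+14 against 7953 and 8374 in FL, and was at 62.9% (-0.67, SE 0.17, limma, adjusted p 0.0120). Srsf6 had 5311 and 7315 against 11164 and 8688, and was at 63.3% (-0.66, SE 0.20, limma, adjusted p 0.0229). Srsf9 had 1473 and 1327 against 2019 and 1793, and was at 73.5% (-0.44, SE 0.14, limma, adjusted p 0.0288). These 3 falls turned with library totals, which gave Srsf5 0.55 (limma, adjusted p 0.0627), Srsf6 0.56 (adjusted p 0.0339) and Srsf9 0.77 (adjusted p 0.00752). The median of all genes moved there from -0.08 to 1.11, so all 3 values lay below it. With quantiles Srsf5 was 0.11 (limma, adjusted p 0.662) and Srsf6 0.17 (adjusted p 0.501), while Srsf9 stayed below 0 (-0.20, adjusted p 0.240). Relative to the median of all genes Srsf5 lay at -0.59 with size factors, -0.57 with library totals and -0.12 with quantiles. edgeR did not call Srsf6 (adjusted p 0.0539) or Srsf9 (0.0960). Srsf1, at 0.01 with size factors, was called higher with quantiles (0.89, limma, adjusted p 0.00143) and library totals (1.23, adjusted p 0.000555). The share of calls that were higher moved from 45.2% to 61.3% with quantiles and 85.2% with library totals. Without deltC12345+14 replicate 1, the library of FL's type, 2 members stayed called, with adjusted p of 0.0722 for Srsf5, 0.138 for Srsf6 and 0.0578 for Srsf9. Without FL replicate 1 the adjusted p was 0.139 for Srsf6 and 0.108 for Srsf9, and without FL replicate 2 it was 0.0544 for Srsf5. Without deltC12345+14 replicate 2 it was 0.156 for Srsf9. With a term for library type, 4 members stayed called, and Srsf9 (0.0883) and Srsf10 (0.0841) did not.

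Removing C1 to C5 from the form without 14 (deltC12345delt14 against C12345delt14) gave 0 members higher and 2 lower, where 13.6% of all genes were called higher and 18.6% lower. Srsf5 had 4434 and 3266 normalised reads against 9940.2 and 9659, and was at 38.8% (-1.36, SE 0.17, limma, adjusted p 0.00104), a call kept under every alternative run. Srsf6 had 5834 and 5079 against 8914 and 7934, and was at 64.7% (-0.63, SE 0.20, limma, adjusted p 0.0429). The Srsf6 call was lost without any 1 of its 4 libraries (adjusted p from 0.0871 to 0.221) and was 0.02 with library totals. Srsf11 (0.44, 95% interval 0.08 to 0.80, limma, adjusted p 0.0631) and Srsf4 (0.41, 0.03 to 0.79, adjusted p 0.0900) did not pass the test. With quantiles Srsf11 was called higher (0.78, limma, adjusted p 0.0132), as were Srsf11 (1.09, adjusted p 0.00806) and Srsf4 (1.06, adjusted p 0.0121) with library totals. The share of calls that were higher moved from 42.2% to 61.5% with quantiles and 77.3% with library totals, and the median of all genes from -0.08 to 0.17 and 0.56.

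With C1 to C5 absent, removing 14 (deltC12345delt14 against deltC12345+14) gave 0 members higher and 0 lower, and 0% of all genes were called higher and 0% lower in limma. Without adjustment 169 genes were higher and 374 lower at p under 0.05. edgeR called 0 genes and DESeq2 called 5. The widest member difference was Srsf5 at -0.43 (95% interval -0.82 to -0.04). Whether the effect of 14 depended on C1 to C5 was tested as an interaction in limma, with 0 of 19833 genes called and 2748 at p under 0.05 without adjustment. Members' adjusted p ran from 0.318 for Srsf5 to 0.965 for Srsf6. The stem cell markers summed to between 91710 and 103010 normalised reads in deltC12345+14 and to between 94910 and 96290 in deltC12345delt14, against 42586 and 57228 in FL. In C12345delt14 they summed to 55615 and 75142. The 2-cell markers summed to 346030 and 546810 in C12345delt14 and 907010 and 1666700 in FL. They were at 0 in both deltC12345+14 libraries and at 0 to 3.28 in deltC12345delt14, where Zfp352, Zscan4d, Tcstv1, Tcstv3 and Usp17lc were at 0.

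**Figure D5:**
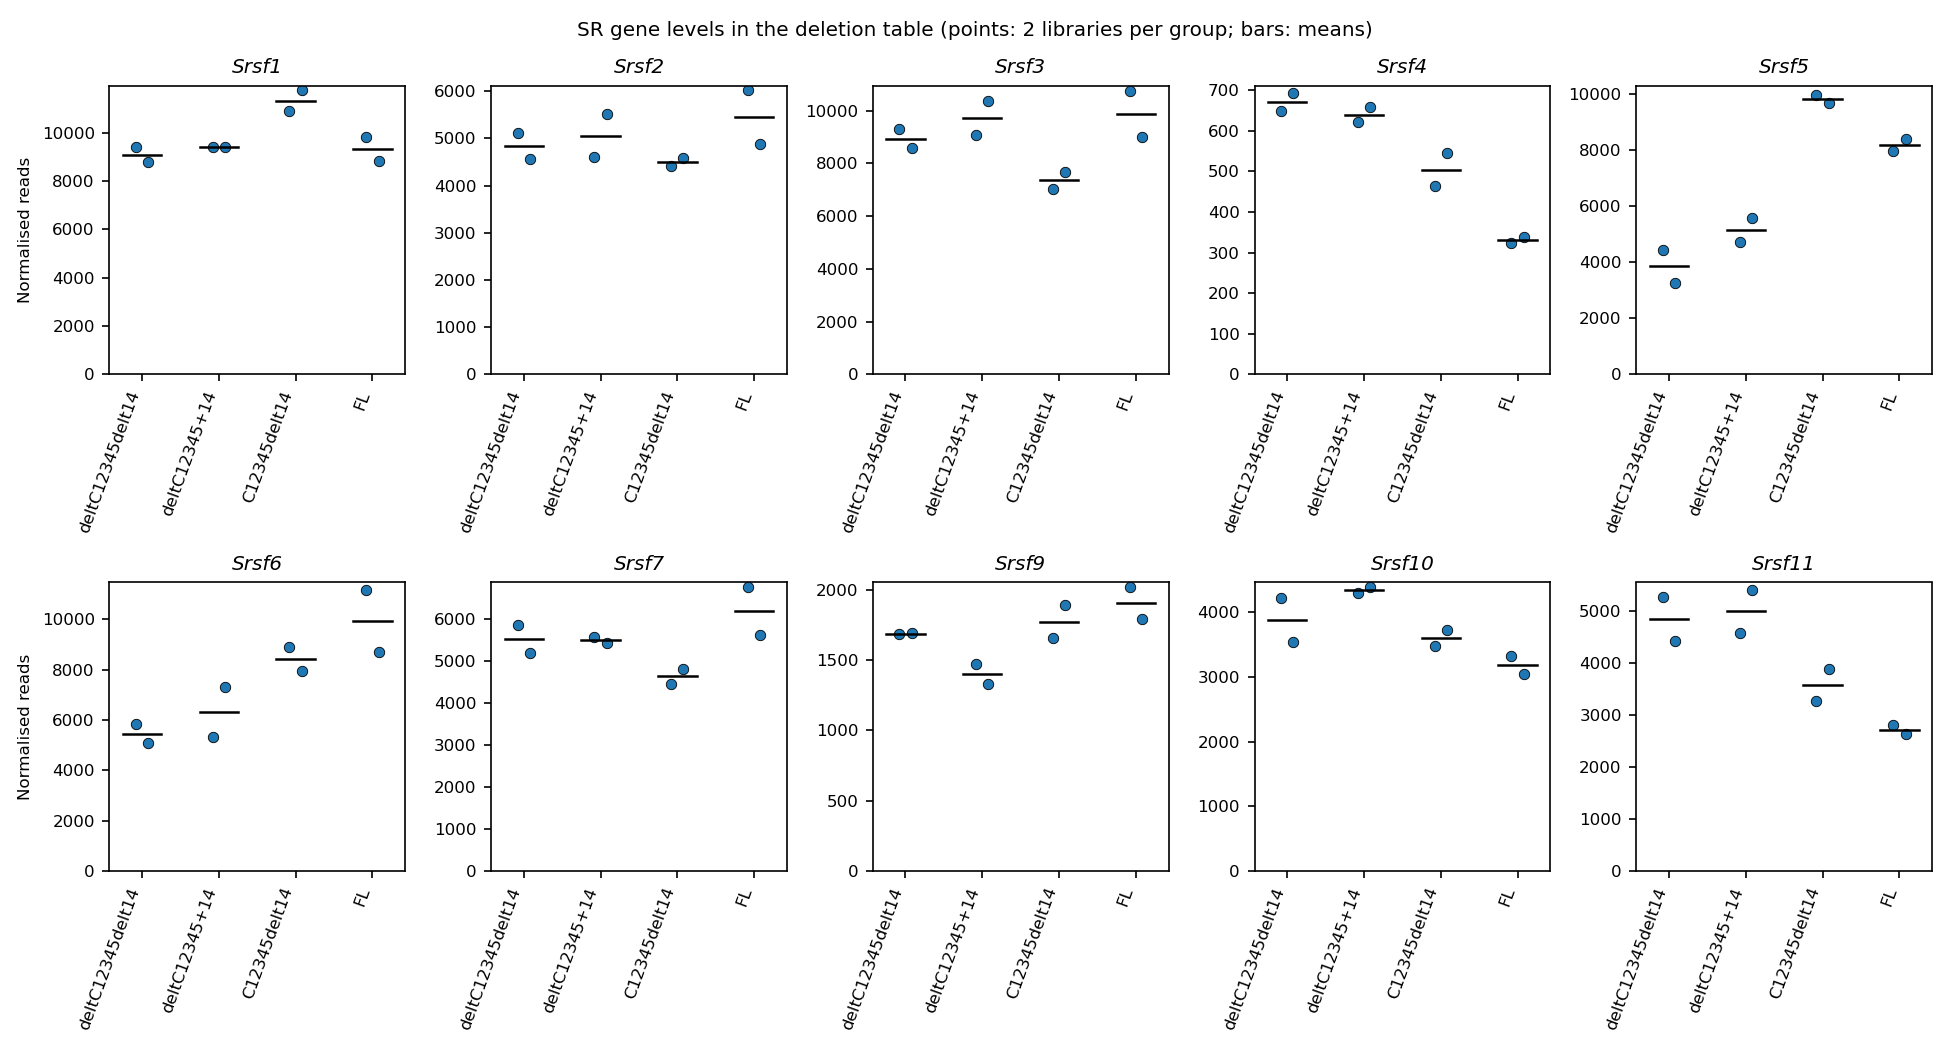
Level of each SR gene in the deletion table. The vertical axis is normalised reads, points are the 2 libraries of each group and bars are means. Srsf11 and Srsf4 were highest, and Srsf5 and Srsf6 lowest, in the 2 groups without C1 to C5.

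The partners of SR proteins were described from 4 lists, counted against mCherry. Counts in FL are read against 33.2% of all genes higher and 27.4% lower, and those in the other groups against the shares given above for each. Of 12 kinases, phosphatases and importers of SR proteins, 11 were tested, and in FL 2 were higher and 6 lower, with a median of -0.33. The kinase Clk3 had 1515 to 1753 normalised reads in FL against 577 to 643 in mCherry (1.42, SE 0.17, limma, adjusted p 1.19e-05), and the phosphatase subunit Ppp1ca 8511 to 8780 against 4910.2 to 5110.2 (0.79, SE 0.13, adjusted p 0.000158). The kinases Clk1 and Clk4, which act on SR proteins in the nucleus, were lower. Clk1 had 435 to 600.0 against 2086 to 2199 (-2.07, SE 0.19, limma, adjusted p 8.78e-07), and Clk4 had 287 to 355 against 756 to 789 (-1.27, SE 0.16, adjusted p 1.53e-05). C1+14 had 0 of the 11 higher and 4 lower, C3+14 had 4 and 4, C1C3a 4 and 5, C1C3b 1 and 4, and C1C3c 1 and 5. With library totals, 0 were higher and 8 lower in FL, with a median of -1.36 against -0.86 for all genes.

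Of 19 other SR and SR-related genes, 3 were higher and 9 lower in FL, with a median of -0.31. Srek1, a splicing regulator, had 494 to 504 normalised reads in FL against 1657 to 1698 in mCherry (-1.75, SE 0.15, limma, adjusted p 4.22e-07). Rsrc2 had 538 to 889 against 2474 to 2550.3 (-1.86, SE 0.23, limma, adjusted p 1.46e-05). Scaf1 (0.89, SE 0.16, limma, adjusted p 0.000294) and Rsrc1 (0.75, SE 0.18, adjusted p 0.00254) were higher. The other constructs had 1 higher each, with 13 lower in C1+14, 14 in C1C3c, 12 in C1C3b, 11 in C1C3a and 9 in C3+14. With quantiles or library totals, more genes of this list were also lower than higher in each of the 6 groups. Library totals gave 0 higher and 17 lower in FL, with a median of -1.34 against -0.86 for all genes.

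The hnRNP proteins often oppose SR proteins at the same exons. Of 24 hnRNP and related repressor genes, 8 were higher and 5 lower in FL (median 0.20), shares near those of all genes, with Hnrnpl at 1.18 (SE 0.12, limma, adjusted p 1.99e-06) and Hnrnpab at 0.72 (SE 0.16, adjusted p 0.00173). Ptbp3 (-1.88, SE 0.21, limma, adjusted p 6.11e-06) and Hnrnpdl (-1.14, SE 0.12, adjusted p 3.70e-06) were lower. Of 30 core spliceosome genes, 22 were higher and 2 lower in FL (median 0.60), among them Snrpf at 1.35 (SE 0.18, limma, adjusted p 2.54e-05) and Sf3a2 at 1.28 (SE 0.12, adjusted p 8.33e-07). Prpf4 (-1.02, SE 0.13, limma, adjusted p 2.18e-05) and Sf3b1 (-0.46, SE 0.15, adjusted p 0.0165) were the 2 lower ones. The direction of both lists in FL turned with scaling: with library totals 0 hnRNP genes were higher and 23 lower, and 0 core genes were higher and 20 lower. That setting called 15367 of 21584 genes in FL, 24.9% of them higher. The core median lay above that of all genes with size factors (0.60 against 0.09), quantiles (0.14 against -0.27) and library totals (-0.43 against -0.86). The hnRNP median was 0.20, -0.70 and -0.84 in these settings, below that of all genes with quantiles only. In C1+14, 1 hnRNP gene was higher and 11 lower with size factors, 6 and 8 with quantiles, and 5 and 6 with library totals. Of the core genes there, 0 were higher and 13 lower with size factors, 1 and 10 with quantiles, and 0 and 6 with library totals. With size factors the core list was thus mostly higher in FL and C1C3a (18 higher, 3 lower) and mostly lower in C1C3c (0 and 17). With library totals it was lower in C1C3a as well (0 and 20), but its median of -0.49 lay above the -0.73 of all genes. In C1C3c it then had 1 higher and 9 lower, with a median of -0.20 against 0.20 for all genes. C3+14, of mCherry's library type, had 11 core genes higher and 4 lower with size factors (median 0.21, all genes 0.23). Quantiles gave 4 and 12 there, and library totals 0 and 22. C1C3b had 2 and 10 with size factors (-0.17, all genes 0.15). With that scaling 3 hnRNP genes were higher and 11 lower in C3+14, and 5 and 7 in C1C3a. The hnRNP counts were 2 and 15 in C1C3b and 3 and 14 in C1C3c.

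The genes whose profile was most like that of Srsf11, the member with the widest range (1.83 between the highest and lowest group means, log2), were Fndc3a, Tirap, Lmbr1, Amz2 and Senp1. Likeness was Pearson's r over the 14 libraries of the chimera table among 11739 genes with a mean of at least 100 normalised reads. It was 0.983 for Fndc3a, 0.980 for Tirap, 0.979 for Lmbr1, 0.978 for Amz2 and 0.9749 for Senp1. The libraries share groups and scaling, so these values only describe the ranking. Fndc3a, for example, had means of 609 normalised reads in FL, 637 in C3+14 and 448 in C1C3a, against 1402 in C1+14, 1858 in C1C3c, 1433 in C1C3b and 1381 in mCherry. Over all members, 9 of 60 pairs of neighbouring groups in order of level differed in the chimera table, and 1 of 30 in the deletion table. The order came from these same means, so neighbours, here and above, are the closest groups by construction and few calls are built in. The count was not made over all genes and is no result about the members.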

How the data were processed

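The deposited values are a signal: each gene's reads were divided by a size factor of its library, as the values themselves show, since 100% were whole multiples of 1 step per library (tolerance 0.001). The submitters' processing notes name Trim Galore 0.5.0, FastQC, DESeq2 and the build mm10. The aligner, the counting program and the annotation are not given in the sources used here. Symbols were found for 55141 of 55487 identifiers (99.4%). Libraries were made with a stranded, poly(A)-selecting kit, per the labels' protocols.

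The main test was limma 3.58.1 (R 4.3.3; lmFit, eBayes with trend) on log2(value + 1), so fold changes of low genes are understated. All groups of a table entered 1 fit, and p-values were adjusted over all genes tested (Benjamini-Hochberg), with calls at an adjusted p under 0.05. Replicates differed far beyond sampling noise (chi-square per gene 3.31 to 78.9), so none was a duplicate. Whole reads recovered from the steps went to edgeR 4.0.16 (quasi-likelihood test, TMM) and DESeq2 1.42.0 as alternatives. Others were a pseudocount of 8, no filter, quantile normalisation, library totals, the 2 groups alone, a replicate block, a library type term and leaving out each replicate.

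All 10 SR genes are named. Other list genes named are the 2 with the largest rise and the 2 with the largest fall among those called in FL against mCherry with a group mean of 50 or more. The members and lists were chosen with earlier results of these data known. The GENCODE transcripts were used for shared 50-base stretches, and RefSeq for promoter sequences.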

Additional observations from a re-analysis of the deposited data

How the results depend on the processing

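Of 150 gene values (10 members in 15 comparisons), 72 were called, and 65 of those kept their sign in every alternative. With library totals, Srsf9 became -0.32 in FL and -0.72 in C1C3a against mCherry. For C1C3a against C1+14, quantile normalisation gave Srsf1 -0.52 and Srsf7 -0.44 with 9 members called, and library totals gave Srsf1 -0.80, Srsf5 -0.34 and Srsf7 -0.97, also with 9. Of 21584 genes tested, these scalings called 12576 and 14787, and the medians of all genes were -0.27 and -0.94. For C1C3c against C1+14, 2 members were called with either of these scalings and 0 in a fit of the 2 groups alone. Over all genes, 3366 were called there with quantiles and 2646 with library totals. For C1C3b against C1C3a, quantiles gave Srsf1 0.52 and Srsf3 0.43 with 7 called. Library totals gave Srsf1 0.70, Srsf2 0.63, Srsf3 0.70, Srsf7 0.33 and Srsf9 0.66 with 10 called. Over all genes, 11576 were called with quantiles (median 0.12) and 12773 with library totals (median 0.71). The library-total values named for C1C3b against C1C3a thus all lay below the median of all genes. For deltC12345+14 against FL, quantiles gave Srsf2 0.56, Srsf3 0.86, Srsf5 0.11, Srsf6 0.17 and Srsf7 0.55. Library totals gave Srsf2 1.11, Srsf3 1.19, Srsf5 0.55, Srsf6 0.56, Srsf7 1.05 and Srsf9 0.77. The median of all genes was 0.23 with quantiles and 1.11 with library totals. For deltC12345delt14 against C12345delt14, 1 member was called without the filter, 4 with quantiles and 8 with library totals, which gave Srsf6 0.021 and Srsf9 0.58. Of 19833 genes tested, 6491 were called there with quantiles and 8825 with library totals. The cause of these changes was not tested. Leaving out 1 library gave 2 to 5 calls for C3+14 against FL, 0 to 1 for C1C3c against C1+14, 2 to 4 for deltC12345+14 against FL, and 1 for deltC12345delt14 against C12345delt14.

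Replicate numbers did not pair the libraries: correlations of deviations lay from -0.10 to 0.05 for the chimera constructs, and between -0.57 and 0.14 for the deletion constructs. A replicate block gave 1 call in place of 2 for deltC12345delt14 against C12345delt14 and 2 in place of 3 for C3+14 against FL, and the same count in the other comparisons. Crossed pairing of deltC12345delt14 with deltC12345+14, chosen after seeing the data, gave 0 calls. With 2 libraries a group, small differences cannot be resolved.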
